A study of Homo sapiens with 12 samples.

Results

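Mitosis and the spindle checkpoint are represented here by 42 genes, taken by gene symbol from the 26372 genes listed in each deposited expression table. No expression cutoff was part of the rule, but the genes were chosen with earlier results of these data known. All 42 reached 1 FPKM or more in at least 1 group, so none was lost to the filter on low values that left 13456 features for testing. They were grouped into 9 roles: the CDK1-cyclin switch that starts mitosis, mitotic kinases with the activator TPX2, the chromosomal passenger complex, the spindle checkpoint, anaphase control, centromere and kinetochore proteins, spindle motors and microtubule proteins, the central spindle and cytokinesis, and chromosome structure.

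A cell enters mitosis when cyclin-bound CDK1 becomes active, builds a spindle whose microtubules attach to kinetochores, and holds back anaphase through the spindle checkpoint until every chromosome is attached. CDC20 then activates the anaphase-promoting complex (APC/C), a ubiquitin ligase that marks securin and cyclin B for destruction, and the central spindle guides the cut between the daughter cells. The transcripts of these genes are made mainly in G2 and mitosis: in resting cells the DREAM complex represses them through promoter elements called CHR, and in cycling cells MuvB with B-MYB and FOXM1 activates them, often together with NF-Y bound to CCAAT boxes.

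The measurements were poly(A)-selected RNA sequencing of HCT116, a human colorectal carcinoma cell line, either with a knockout of KDM3A, a histone H3 lysine 9 demethylase (KO), or without it (WT). There were 6 groups: KO cells in normal medium (KO mock), KO cells without serum (KO starved), KO cells given fetal bovine serum again after 24 h without it (KO refed), and the same 3 states of WT cells (WT mock, WT starved, WT refed). How the knockout was made, whether it is 1 clone, and how long the serum was back before harvest are not given in the sources used here. The labels list 2 replicates per group, but the deposited tables hold 1 column per group, so every value below is 1 number per group and has no replicate error.

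The unit is FPKM, a fragment count scaled by transcript length and by the size of the library. All differences are on the log2(FPKM + 1) scale, which understates the change of low genes. Differences averaged over the genotypes or over the states were tested with limma, in an additive fit of state and genotype to the 6 group values with 2 residual degrees of freedom and Benjamini-Hochberg adjustment over all 13456 features. Such a p-value measures how evenly a difference recurred across genotypes or states, not biological error between replicates, and "rose" or "fell" is used for adjusted p under 0.05 only. A difference between 2 single values has no test.

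KDM3A itself was at 3.15, 3.01 and 3.59 FPKM in mock, starved and refed KO cells and at 41.3, 17.8 and 19.8 FPKM in mock, starved and refed WT cells, and fell in KO (log2 -2.58, SE 0.26, limma adjusted p = 0.00730). The colon epithelial genes EPCAM and CDX2 were expressed in every group, at 144.9 to 203 FPKM and 6.51 to 9.24 FPKM, while VIL1 was at or near 0 throughout. KRT20 was low, at 0.368 to 1.19 FPKM, and lower in KO than in WT cells in each state. The colon epithelial list differed between genotypes: the 10 genes summed to 5505, 4959 and 6136 FPKM in mock, starved and refed KO cells and to 2660, 2269 and 2716 FPKM in mock, starved and refed WT cells, and 7 of the 9 tested rose in KO. WT mock stood apart from the other groups. All 16 endothelial markers were at 1 FPKM or more there, against 3 of 16 in each other group, and 15 of them were at least 2-fold above every other group. Their summed level was 299.5 FPKM, against 50.4 to 93.3 FPKM elsewhere. All values listed for WT mock summed to 1149310 FPKM, against 481036 to 629410 FPKM in the other groups, and to 522059 FPKM without short RNA features, against 444289 to 593584 FPKM. CDH5, for one, had 25.8 FPKM there, and 0 in mock and starved KO cells. Every result that uses WT mock carries this, and its part in them was not tested; starved minus mock and refed minus mock in KO cells do not use that value. Rescaling the groups by median ratios moved the median KO minus WT difference of all 13456 features from log2 0.16 to -0.00192. A KO minus WT difference is therefore given below beside the median of all features. The divisors of that rescaling were lowest in WT starved and WT refed, 0.89 and 0.87, against 1.04 to 1.10 elsewhere. WT starved and WT refed also listed fewer genes at 0, 4300 and 4301, against 6401 in WT mock and 7075 to 7312 in KO groups. The part of this in the results was not tested.

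The promoters of 7 of the genes are shown first, because the CHR and CCAAT elements in them are what these genes are known to share. Each is the RefSeq sequence on GRCh38.p14 from 250 bases before to 50 bases after an annotated start site, written 5′ to 3′ on the strand of the gene; capitals mark TTTGAA or TTCGAA, the CHR letters, and CCAAT, each on either strand (TTCAAA and ATTGG on the other).
CDK1, chr10:60778228-60778527, plus strand: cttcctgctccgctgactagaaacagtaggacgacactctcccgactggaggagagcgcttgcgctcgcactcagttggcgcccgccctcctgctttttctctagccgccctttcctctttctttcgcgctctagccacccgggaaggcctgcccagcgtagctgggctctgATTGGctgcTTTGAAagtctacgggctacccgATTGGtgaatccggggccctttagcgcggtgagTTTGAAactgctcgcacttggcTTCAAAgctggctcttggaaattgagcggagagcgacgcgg
CCNB1, chr5:69166900-69167199, plus strand: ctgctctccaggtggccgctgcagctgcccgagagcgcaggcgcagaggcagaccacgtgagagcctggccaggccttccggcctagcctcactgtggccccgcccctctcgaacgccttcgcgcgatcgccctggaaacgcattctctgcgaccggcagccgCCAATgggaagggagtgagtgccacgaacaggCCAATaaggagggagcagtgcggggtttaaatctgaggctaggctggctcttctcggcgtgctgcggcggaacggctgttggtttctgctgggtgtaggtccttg
CCNB2, chr15:59104896-59105195, plus strand: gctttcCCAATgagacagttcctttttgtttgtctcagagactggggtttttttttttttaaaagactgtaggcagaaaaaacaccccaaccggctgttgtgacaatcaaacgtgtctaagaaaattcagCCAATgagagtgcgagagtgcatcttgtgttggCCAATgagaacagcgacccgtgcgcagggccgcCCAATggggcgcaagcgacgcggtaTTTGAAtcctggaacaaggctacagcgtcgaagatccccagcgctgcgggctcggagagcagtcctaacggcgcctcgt
PLK1, chr16:23678639-23678938, plus strand: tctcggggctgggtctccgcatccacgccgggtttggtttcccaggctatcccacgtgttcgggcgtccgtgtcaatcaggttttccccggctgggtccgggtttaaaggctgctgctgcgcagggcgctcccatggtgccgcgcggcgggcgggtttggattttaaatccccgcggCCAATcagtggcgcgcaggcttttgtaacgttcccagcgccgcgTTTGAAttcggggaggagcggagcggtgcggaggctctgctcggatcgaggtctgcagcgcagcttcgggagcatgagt
BUB1, chr2:110678014-110678313, minus strand: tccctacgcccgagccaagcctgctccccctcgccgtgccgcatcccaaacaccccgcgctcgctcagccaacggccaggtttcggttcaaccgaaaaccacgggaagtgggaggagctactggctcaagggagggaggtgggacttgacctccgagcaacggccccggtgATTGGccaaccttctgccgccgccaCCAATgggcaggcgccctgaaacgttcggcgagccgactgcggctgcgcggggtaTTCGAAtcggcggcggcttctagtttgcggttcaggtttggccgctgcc
CDC20, chr1:43358731-43359030, plus strand: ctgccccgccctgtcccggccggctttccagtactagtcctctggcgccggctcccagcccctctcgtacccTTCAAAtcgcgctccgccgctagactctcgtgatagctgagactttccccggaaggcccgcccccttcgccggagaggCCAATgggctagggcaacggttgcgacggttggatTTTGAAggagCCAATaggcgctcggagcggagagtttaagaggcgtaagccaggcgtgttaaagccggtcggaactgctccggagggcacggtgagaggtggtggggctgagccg
KIF20A, chr5:138178862-138179161, plus strand: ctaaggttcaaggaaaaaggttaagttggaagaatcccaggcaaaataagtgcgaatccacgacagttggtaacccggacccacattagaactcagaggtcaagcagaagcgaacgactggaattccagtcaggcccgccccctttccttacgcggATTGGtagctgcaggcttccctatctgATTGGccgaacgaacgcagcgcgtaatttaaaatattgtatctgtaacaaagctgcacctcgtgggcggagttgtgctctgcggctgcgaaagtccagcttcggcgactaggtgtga

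In these windows PLK1 and CCNB2 have the CHR letters 29 bases before the start and a CCAAT box upstream of them, at -73 in PLK1 and at -54, -87, -120 and -244 in CCNB2. BUB1 has TTCGAA 2 bases into the transcript. CDC20 has TTTGAA at -65, close to CCAAT boxes at -55 and -100, and TTCAAA at -178. CDK1 has CHR letters at -69, -13 and 10 in the promoter shown. Its other annotated promoter, not shown, has them at -161 only. The windows of CCNB1 and KIF20A hold a pair of CCAAT boxes each, at -87 and -55 in CCNB1 and at -94 and -67 in KIF20A, and none of the CHR letters searched.

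The sequence table held 45 promoters for 35 of the 42 genes, and 6 genes had more than 1 promoter, in 5 of them with overlapping windows; FOXM1, AURKA, TPX2, BIRC5, BUB3, TTK and UBE2C were not matched. TTTGAA or TTCGAA stood in 30 of the 45 (66.7%), against 16.4% of all 35116 promoters of the same length, and in the last 100 bases in 24 (53.3%), against 5.01%. CCAAT stood in 34 (75.6%), against 34.6% of all promoters. Both stood in 25 (55.6%), against 6.38%. The CHR matches had a median position of -27, with 28 of 42 matches within 50 bases of the start, and the CCAAT matches a median position of -78; 1 pair of matches of the 2 motifs overlapped. Since windows overlap, the 42 CHR matches stand for 40 positions in the genome and the 71 CCAAT matches for 66.

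**Figure D1:**
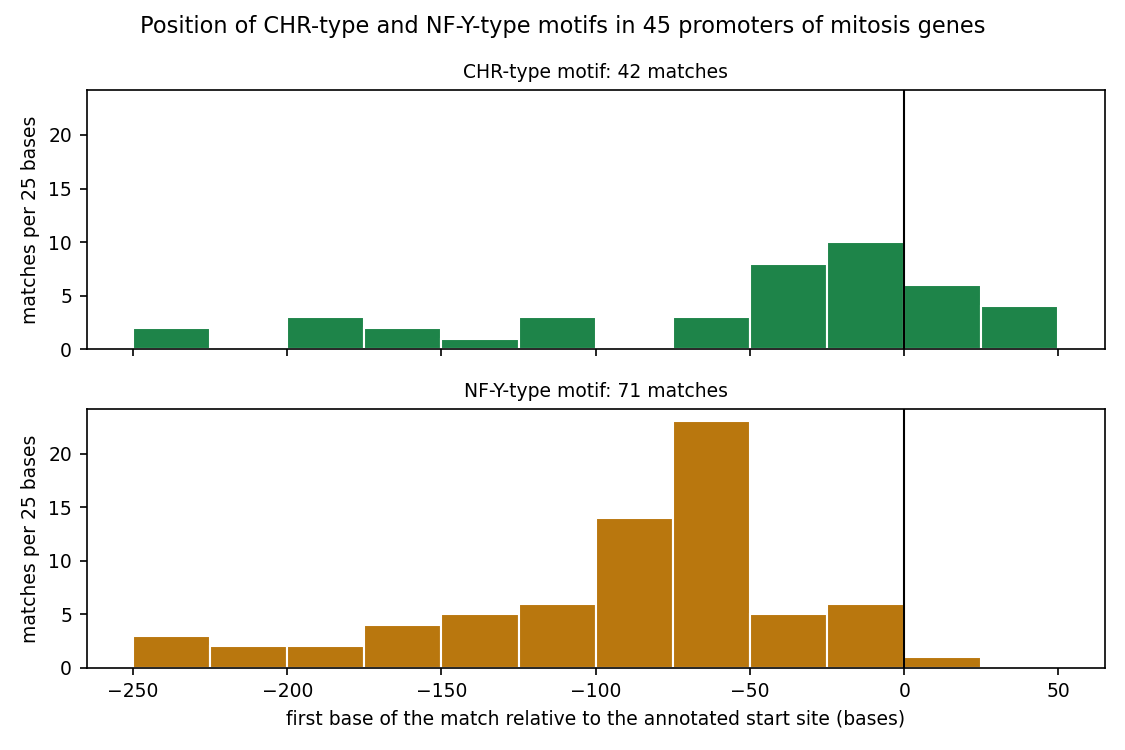
Distance of each CHR-type match (upper panel) and NF-Y-type match (lower panel, the CCAAT box) from the annotated start site, counted over the 45 promoters of the mitosis genes; bar height is the number of matches. The 42 CHR-type matches gather around the start, with a median of -27, and the 71 NF-Y-type matches upstream of it, with a median of -78.

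Genes with and without these letters were both lower in starved cells. In KO cells the 27 genes with CHR letters had a median starved minus mock difference of log2 -0.55 and the 8 without them -0.73; in WT cells the medians were -1.11 and -1.30. The 8 without the letters were CCNA2, CCNB1, NEK2, AURKB, PTTG1, CENPE, KIF2C and KIF20A. These medians are a description with no test. Only TTTGAA and TTCGAA were searched, so the 8 are genes without these letters, not genes shown to lack a CHR element.

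Serum starvation came with lower levels throughout: all 42 genes were lower in starved than in mock cells in both genotypes. Of all features, 57.2% were lower in starved KO cells, 70.1% in starved WT cells and 52.9% in both. After median-ratio or upper-quartile rescaling 1 gene, SPC25, was above mock in starved WT cells, by log2 0.03 with the first. In the averaged comparison 34 of the 42 fell and none rose, against 19.4% of all features that fell and 5.83% that rose. The median difference was log2 -0.86 for the 42 genes and -0.13 for all features. The falls were led by ANLN, NEK2, BUB1, KIF20A, NUF2 and PTTG1, and the smallest differences were those of FOXM1, SPC25 and BUB3. Because these are bulk cultures, fewer cells in mitosis and less RNA per cell cannot be told apart.

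The test rests on few values. Without the KO mock value 37 of the 42 fell. Without any single one of the KO starved, KO refed, WT mock, WT starved or WT refed values none did; 1 residual degree of freedom then remained, and at most 18 of all 13456 features fell. Without the filter on low values none of the 42, and none of all features, fell. The direction does not rest on the WT mock value, since all 42 genes were also lower in KO starved than in KO mock.

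**Figure D2:**
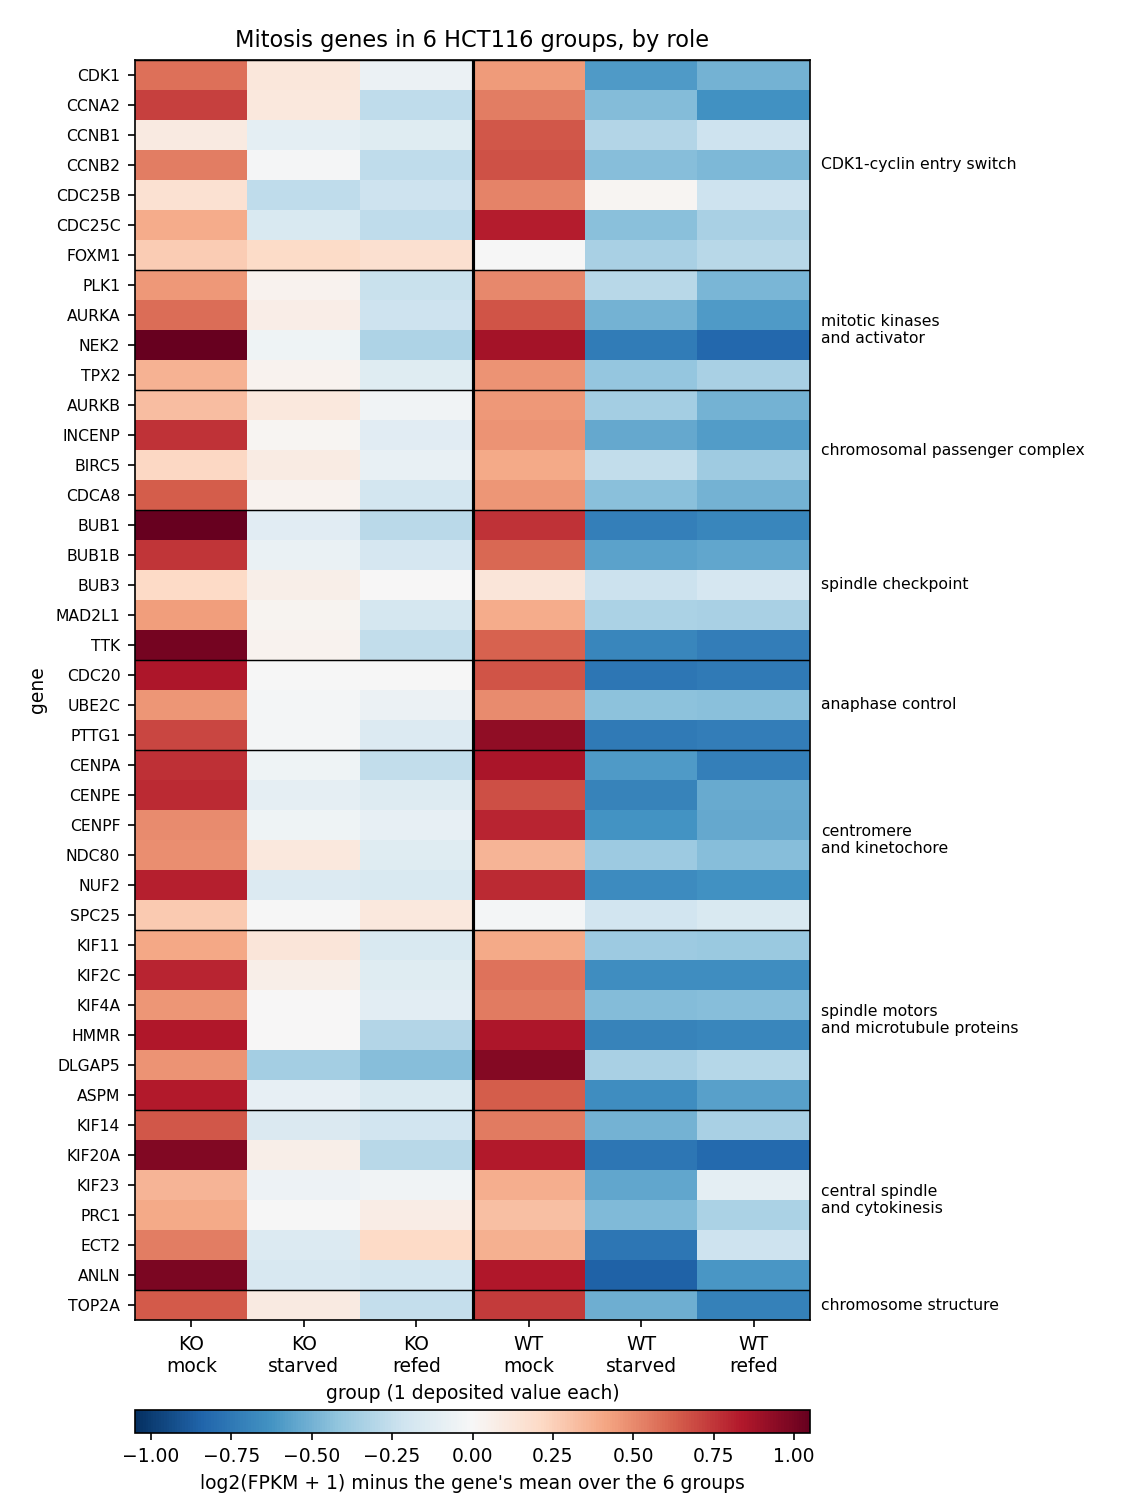
Heat map of the 42 mitosis genes (rows, grouped by role) in the 6 groups (columns, KO left of WT); colour is log2(FPKM + 1) minus the mean of that gene over the 6 groups, 1 deposited value per cell. Both mock columns are the reddest for most genes, and starved and refed WT cells are the bluest.

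The starved minus mock difference was smaller in KO than in WT cells for most genes. Starved levels were a median of 66.1% of mock in KO cells and 44.3% in WT cells, over the 42 genes. In KO cells 3 genes, NEK2, BUB1 and ANLN, were at least 2-fold lower in starved than in mock cells, against 1.18% of all features; in WT cells 24 were, against 3.91% of all features. The KO count depends on the pseudocount: 7 genes were at least 2-fold lower with a pseudocount of 0.1. On FPKM itself, a count made after these values were seen, 8 were, with TTK, CENPE, NUF2, ASPM and KIF14 beside those 3, against 4.03% of all features. The median starved minus mock difference was log2 -0.55 in KO cells, where all features had -0.06, and -1.08 in WT cells, where all features had -0.19. After median-ratio rescaling the medians of the 42 genes were -0.48 in KO and -0.89 in WT cells. Fewer than 24 genes were then at least 2-fold lower in WT cells. The difference in WT was the more negative for 41 of the 42 genes and for 72.5% of all features, and SPC25 was the exception; that KO and WT respond differently was not tested, since each response is 1 value minus 1 value. After median-ratio rescaling the count was 40 of 42, with a median KO minus WT difference between the responses of 0.36 for the 42 genes and -0.00859 for all features.

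**Figure D3:**
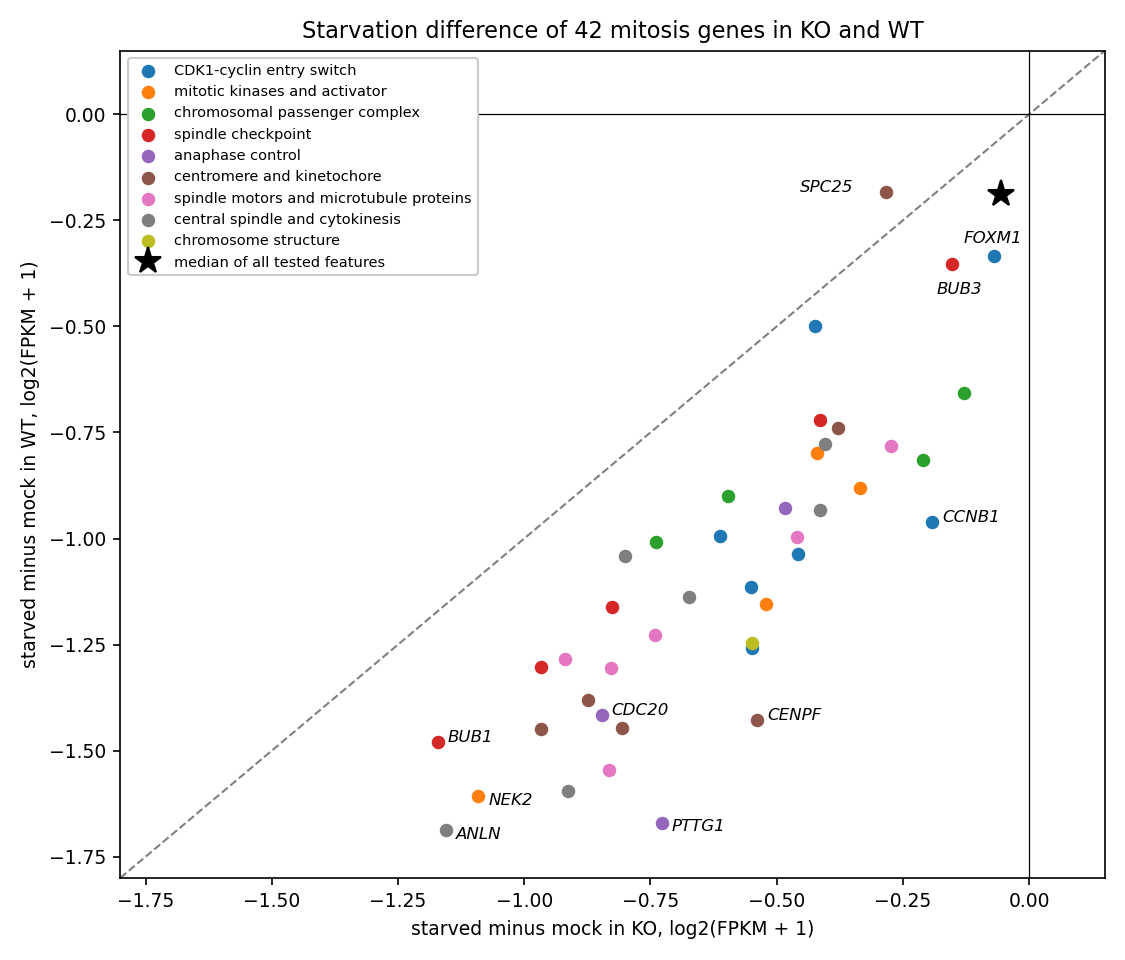
Starved minus mock difference of each of the 42 genes in KO cells (horizontal axis) and in WT cells (vertical axis), both in log2(FPKM + 1), coloured by role; the dashed line marks equal differences and the star the median of all tested features. All 42 points lie below 0 on both axes and 41 lie below the dashed line, with SPC25 above it.

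Genes with a larger difference in KO cells tended to have a larger one in WT cells. FOXM1 and BUB3 were among the smaller differences in both genotypes, and ANLN, NEK2 and BUB1 among the larger. CCNB1 departed from this, at log2 -0.19 in KO and -0.96 in WT cells. Pearson's r between the KO and WT differences was 0.839 over the 42 genes and 0.385 over all features. This is a description across genes, which are not independent replicates and share the same 4 groups.

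The CDK1-cyclin switch was reduced unevenly: 4 of its 7 genes fell in starved cells, with a median of log2 -0.75. CDK1, the kinase that drives mitotic entry, had 74.8, 54.1 and 47.7 FPKM in mock, starved and refed KO cells and 67.9, 32.6 and 35.0 FPKM in mock, starved and refed WT cells. The KO starved and KO refed values lay between the WT mock value and the WT starved value, and the averaged starved minus mock difference passed the test (log2 -0.75, SE 0.15, adjusted p = 0.0336).

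CCNB1, which encodes cyclin B1, the main mitotic partner of CDK1, had 64.8, 56.6 and 55.6 FPKM in mock, starved and refed KO cells and 96.1, 48.9 and 52.0 FPKM in mock, starved and refed WT cells. WT mock was the one high value and the other 5 groups lay close together, so that starved minus mock was log2 -0.19 in KO cells and -0.96 in WT cells; the averaged difference did not pass (log2 -0.58, SE 0.21, adjusted p = 0.106). Its relative CCNB2 (log2 -0.83, SE 0.15, adjusted p = 0.027) and the S and G2 phase cyclin CCNA2 (log2 -0.80, SE 0.11, adjusted p = 0.0191) both fell.

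Of the phosphatases that switch CDK1 on, CDC25C fell (log2 -0.90, SE 0.18, adjusted p = 0.0324) and CDC25B did not pass (log2 -0.46, SE 0.12, adjusted p = 0.0504). CDC25B had 74.7, 55.4 and 57.4 FPKM in mock, starved and refed KO cells and 95.8, 67.5 and 57.1 FPKM in mock, starved and refed WT cells, and with DLGAP5 it was, as deposited, 1 of 2 genes not higher in KO starved than in WT starved cells.

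FOXM1, a transcription factor that drives many genes of this set, had 22.6, 21.5 and 21.1 FPKM in mock, starved and refed KO cells and 18.5, 14.5 and 14.98 FPKM in mock, starved and refed WT cells. KO values stayed within a narrow range and above every WT value, and starved minus mock was the smallest of the 42 genes (log2 -0.20, SE 0.09, adjusted p = 0.167). FOXM1 overlaps RHNO1 and ITFG2 in the annotation, and the counting rule is not given in the sources used here, so its reads may be shared with theirs.

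All 4 mitotic kinases and activators fell in starved cells, with a median of log2 -0.72. NEK2, a kinase that helps the centrosomes part, had 38.0, 17.3 and 14.03 FPKM in mock, starved and refed KO cells and 33.6, 10.3 and 9.67 FPKM in mock, starved and refed WT cells. It was more than 2-fold lower in starved than in mock cells in both genotypes (log2 -1.35, SE 0.14, adjusted p = 0.0175).

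PLK1, which acts from centrosome maturation to cytokinesis, had 56.0, 41.6 and 34.2 FPKM in mock, starved and refed KO cells and 58.0, 32.9 and 28.8 FPKM in mock, starved and refed WT cells. It fell in starved cells (log2 -0.61, SE 0.12, adjusted p = 0.0299), and each refed value was lower than the starved one. AURKA, the kinase of the spindle poles, had 29.9, 20.5 and 16.6 FPKM in mock, starved and refed KO cells and 31.4, 13.5 and 12.6 FPKM in mock, starved and refed WT cells. It fell as well (log2 -0.84, SE 0.17, adjusted p = 0.0316). TPX2, which activates AURKA and nucleates spindle microtubules, also fell (log2 -0.61, SE 0.15, adjusted p = 0.0447). PLK1 and AURKA were each slightly lower in KO mock than in WT mock and higher in KO than in WT after starvation and refeeding, though PLK1 was at log2 -0.02 in refed cells after median-ratio rescaling.

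Within the chromosomal passenger complex, which corrects faulty attachments at centromeres, the scaffold INCENP (log2 -0.87, SE 0.09, adjusted p = 0.0173) and borealin, CDCA8 (log2 -0.75, SE 0.10, adjusted p = 0.0181), fell, while the kinase AURKB and survivin, BIRC5, did not pass. AURKB had 70.9, 61.2 and 55.1 FPKM in mock, starved and refed KO cells and 77.9, 43.9 and 39.9 FPKM in mock, starved and refed WT cells. Its starved minus mock difference was log2 -0.21 in KO cells and -0.81 in WT cells, and the averaged difference did not pass (log2 -0.51, SE 0.18, adjusted p = 0.0975). BIRC5 showed the same split, at log2 -0.13 in KO and -0.66 in WT cells (log2 -0.39, SE 0.15, adjusted p = 0.126).

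Of the 5 spindle checkpoint genes 4 fell, with a median of log2 -0.99. BUB1, the kinase that recruits checkpoint proteins to kinetochores, had 35.4, 15.2 and 13.5 FPKM in mock, starved and refed KO cells and 28.8, 9.68 and 9.98 FPKM in mock, starved and refed WT cells. Mock values in both genotypes stood far above the starved and refed values, and the KO values exceeded the WT values in each state. The averaged starved minus mock difference was log2 -1.33 (SE 0.10, limma adjusted p = 0.017).

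TTK, the kinase that starts checkpoint signalling, had 30.9, 15.3 and 12.3 FPKM in mock, starved and refed KO cells and 23.4, 8.88 and 8.63 FPKM in mock, starved and refed WT cells. It fell in starved cells (log2 -1.13, SE 0.10, adjusted p = 0.017). BUB1B, which encodes BubR1 of the mitotic checkpoint complex, fell by log2 0.99 and MAD2L1, its partner in that complex, by log2 0.57. BUB3, the adaptor of BUB1 and BubR1, had 141, 126 and 122 FPKM in mock, starved and refed KO cells and 133, 104 and 107 FPKM in mock, starved and refed WT cells. It was the most abundant of the 5 and had the smallest difference, which did not pass (log2 -0.25, SE 0.09, adjusted p = 0.11).

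The 3 genes of anaphase control were, with BUB3, the 4 most abundant of the 42 in mock cells of either genotype, and all 3 fell. CDC20, the APC/C activator and target of the checkpoint, had 200.0, 111 and 111 FPKM in mock, starved and refed KO cells and 176, 65.1 and 65.8 FPKM in mock, starved and refed WT cells. Starved and refed levels were nearly equal within each genotype, and KO exceeded WT in all 3 states. The averaged starved minus mock difference was log2 -1.13 (SE 0.17, limma adjusted p = 0.021).

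PTTG1, which encodes securin, the inhibitor of separase, had 158, 94.7 and 87.1 FPKM in mock, starved and refed KO cells and 185, 57.3 and 57.8 FPKM in mock, starved and refed WT cells. WT mock was its highest value and WT starved its lowest, so that starved minus mock was log2 -0.73 in KO and -1.67 in WT cells (log2 -1.20, SE 0.25, adjusted p = 0.0345), the widest gap between the genotypes among the 42 genes. UBE2C, the ubiquitin-conjugating enzyme of the APC/C, fell by log2 0.71. PTTG1 has near-identical copies, PTTG2 and PTTG3P, which were at 0.0636 FPKM or less in every group.

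**Figure D4:**
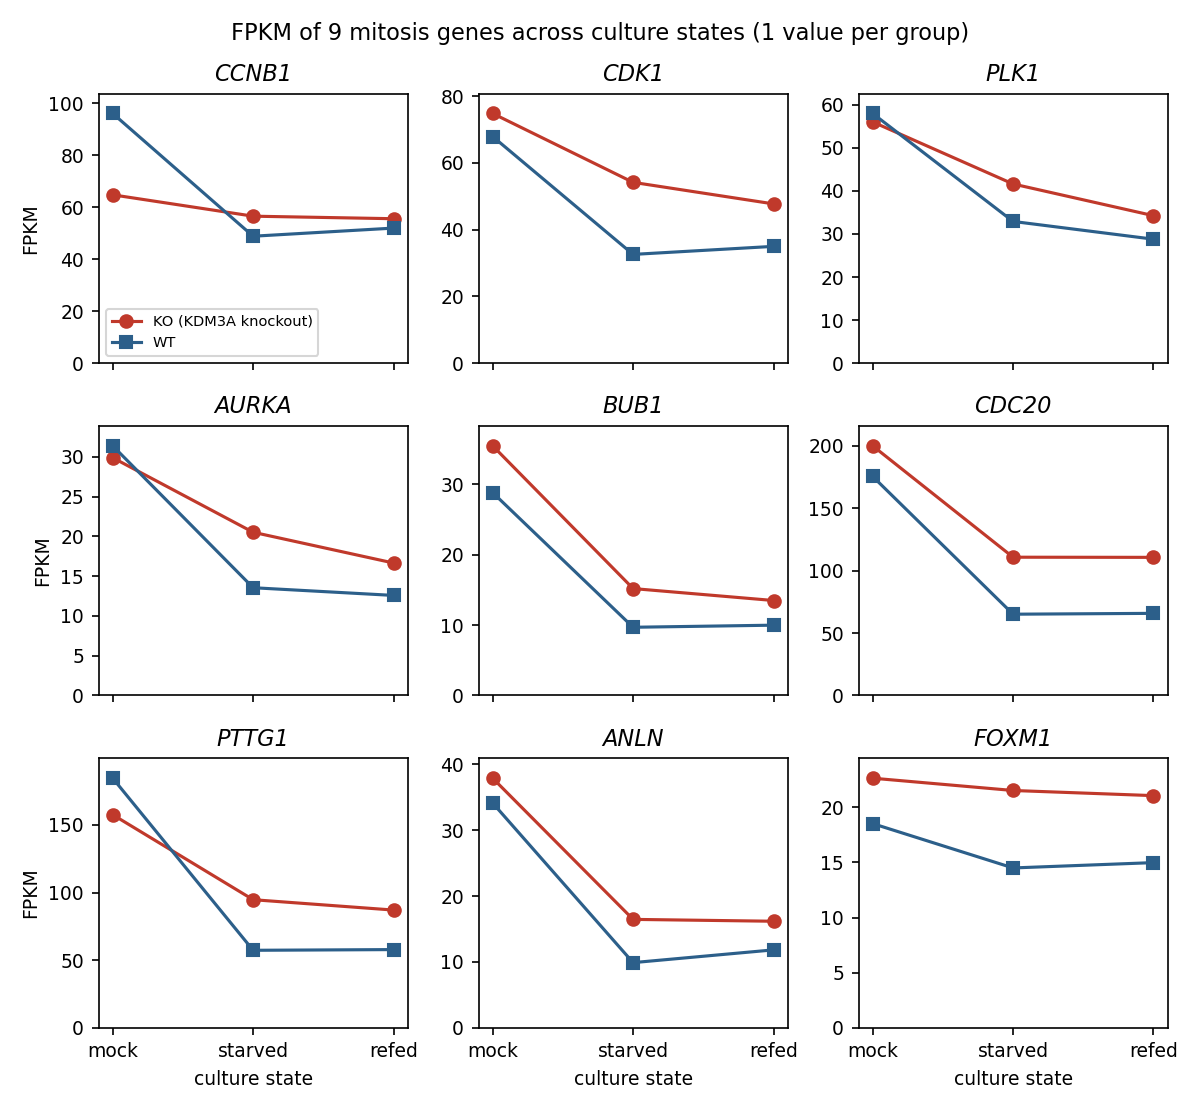
FPKM (vertical axes, from 0) of 9 mitosis genes in mock, starved and refed cells, with KO cells in red and WT cells in blue, 1 deposited value per point. In BUB1, CDC20, ANLN, CDK1 and FOXM1 the KO line lies above the WT line in all 3 states, and in CCNB1, PLK1, AURKA and PTTG1 it lies below it in mock cells and above it after; with median-ratio rescaling CCNB1 lies below in all 3 states and PLK1 below in refed cells as well.

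Among the 6 centromere and kinetochore genes 5 fell, with a median of log2 -1.06. NUF2, a subunit of the NDC80 complex that grips microtubules, had 30.5, 15.1 and 14.98 FPKM in mock, starved and refed KO cells and 29.8, 10.3 and 10.49 FPKM in mock, starved and refed WT cells. Every starved and refed value lay below both mock values (log2 -1.21, SE 0.14, adjusted p = 0.0175). Its partner NDC80 fell less (log2 -0.56, SE 0.11, adjusted p = 0.0292), and the centromeric histone CENPA (log2 -1.13, SE 0.17, adjusted p = 0.0213), the kinetochore motor CENPE (log2 -1.13, SE 0.14, adjusted p = 0.0175) and CENPF, a large kinetochore protein (log2 -0.98, SE 0.23, adjusted p = 0.0436), fell too.

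SPC25, another NDC80 complex subunit, was the member apart, with 17.1, 13.9 and 15.1 FPKM in mock, starved and refed KO cells and 13.7, 11.99 and 12.4 FPKM in mock, starved and refed WT cells. The 6 values lay close together, and the averaged difference did not pass (log2 -0.23, SE 0.07, adjusted p = 0.069). SPC25 overlaps NOSTRIN in the annotation, which was at 0.630 to 2.21 FPKM.

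The spindle motors and microtubule proteins fell in 5 of 6, with a median of log2 -1.03. HMMR, a spindle assembly factor, fell by log2 1.19, ASPM, a spindle pole protein, by 1.10, KIF2C, a kinesin that depolymerises microtubules, by 0.98, and the chromokinesin KIF4A by 0.73. KIF11, the motor that pushes the poles apart, did not pass (log2 -0.53, SE 0.13, adjusted p = 0.0503). DLGAP5, a protein that stabilises kinetochore fibres, fell and had 16.9, 9.07 and 8.46 FPKM in mock, starved and refed KO cells and 24.1, 9.17 and 9.48 FPKM in mock, starved and refed WT cells. Its WT mock value was well above the other 5, and its averaged starved minus mock difference was log2 -1.07 (SE 0.13, limma adjusted p = 0.0177). With values as deposited it was the only one of the 42 with KO below WT in all 3 states. CDC25B and CCNB1 joined it after median-ratio or upper-quartile rescaling. The averaged KO minus WT difference of DLGAP5 did not pass (log2 -0.22, SE 0.11, limma adjusted p = 0.175).

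All 6 genes of the central spindle and cytokinesis fell, with a median of log2 -0.91. ANLN, which encodes anillin of the contractile ring, had 37.9, 16.5 and 16.2 FPKM in mock, starved and refed KO cells and 34.1, 9.90 and 11.8 FPKM in mock, starved and refed WT cells. This was the largest averaged fall of the 42 (log2 -1.42, SE 0.14, adjusted p = 0.017). KIF20A, a kinesin that carries the passenger complex to the midzone, had 37.2, 19.3 and 14.8 FPKM in mock, starved and refed KO cells and 33.6, 10.47 and 10.1 FPKM in mock, starved and refed WT cells. The refed value was the lowest in each genotype (log2 -1.25, SE 0.17, adjusted p = 0.0191 for starved minus mock). The falls of the kinesins KIF14 and KIF23, of the microtubule bundler PRC1 and of ECT2, which activates RhoA for the furrow, were log2 -0.92, -0.67, -0.59 and -0.91.

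TOP2A, the topoisomerase that untangles sister chromatids and the 1 gene of chromosome structure, had 35.2, 23.8 and 18.5 FPKM in mock, starved and refed KO cells and 37.7, 15.3 and 13.2 FPKM in mock, starved and refed WT cells. It fell in starved cells (log2 -0.90, SE 0.18, adjusted p = 0.0336) and was lower still in refed cells of both genotypes.

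Serum given back did not bring these genes back to their mock levels. Refed minus starved gave 0 of 42 that rose and 0 that fell by limma, against 0.773% of all features that rose and 0.052% that fell. At an unadjusted p under 0.05 there was 1 gene, ECT2, which was higher, against 867 of all 13456 features higher and 425 lower. A limma fit without a variance trend also called none of the 42. The median difference was log2 -0.13 in KO cells, with 37 of 42 genes below 0 where 46.7% of all features were, and 0.01 in WT cells, with 24 of 42 above 0 where 41.1% of all features were. Refed levels were a median of 56.0% of mock in KO cells and 44.7% in WT cells.

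In both genotypes 4 of the 42 genes were higher in refed than in starved cells, against 28.4% of all features. Named after their values were seen, they were SPC25, KIF23, PRC1 and ECT2, 3 of them of the central spindle and cytokinesis. ECT2 had 24.6, 15.1 and 19.5 FPKM in mock, starved and refed KO cells and 22.0, 9.45 and 14.3 FPKM in mock, starved and refed WT cells. Refed exceeded starved by log2 0.35 in KO and 0.55 in WT cells, which did not pass (log2 0.45, SE 0.13, adjusted p = 0.341). KIF23 had 23.2, 17.1 and 17.3 FPKM in mock, starved and refed KO cells and 23.6, 11.9 and 16.5 FPKM in mock, starved and refed WT cells. The gap lay in WT cells and did not pass (log2 0.23, SE 0.14, adjusted p = 0.794). At the other end, 17 of the 42 genes were lower in refed than in starved cells in both genotypes, among them CCNA2, PLK1, AURKA, TTK and TOP2A. This pattern held for 34.1% of all features, a similar share.

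Against mock, refed cells were lower for all 42 genes in both genotypes, which held for 50.8% of all features; after either rescaling SPC25 was above mock in WT cells. The averaged comparison called 34 of 42 as fallen and none as risen, against 21.2% and 8.10% of all features, with a median of log2 -0.93 where all features had -0.12. NEK2 (log2 -1.54, SE 0.14, adjusted p = 0.012), KIF20A (log2 -1.46, SE 0.17, adjusted p = 0.0135) and BUB1 (log2 -1.39, SE 0.10, adjusted p = 0.0112) led it. In KO cells 7 genes were at least 2-fold lower in refed than in mock cells, against 0.944% of all features, and in WT cells 22, against 4.21%. With a pseudocount of 0.1 the KO count was 12. After median-ratio rescaling the WT median was log2 -0.86, so fewer than 22 genes were then at least 2-fold lower in WT cells. The same limits apply: without KO mock 38 fell, and without any other single value, or without the filter on low values, none did. Both comparisons use the same mock values and are therefore not independent of each other.

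In mock culture the median KO minus WT difference of the 42 genes was log2 0.07, as it was for all features. There 24 of 42 genes were above 0, where 60.1% of all features were. Single genes ran from log2 -0.56 for CCNB1 to 0.39 for TTK, and this comparison uses the WT mock value. In starved cells the median was 0.51 against 0.19 for all features, with 40 of 42 above 0 where 76.9% of all features were, and in refed cells 0.38 against 0.22, with 41 of 42 above 0 where 79.8% were. KO levels were a median of 148% of WT in starved cells and 133% in refed cells. No gene was 2-fold higher or lower in KO in any state. In mock, starved and refed cells, 2.27%, 2.59% and 3.41% of all features were at least 2-fold higher in KO, and 3.22%, 1.46% and 1.51% at least 2-fold lower.

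These directions depend partly on how the groups are scaled. After median-ratio rescaling the median of the 42 genes was log2 -0.00780 in mock, 0.31 in starved and 0.12 in refed cells, with 21, 38 and 30 of 42 genes above 0, where all features had medians of 0.00286, 0 and 0. CCNB1 and SPC25, which were above 0 in starved cells as deposited, were then at log2 -0.02 each.

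**Figure D5:**
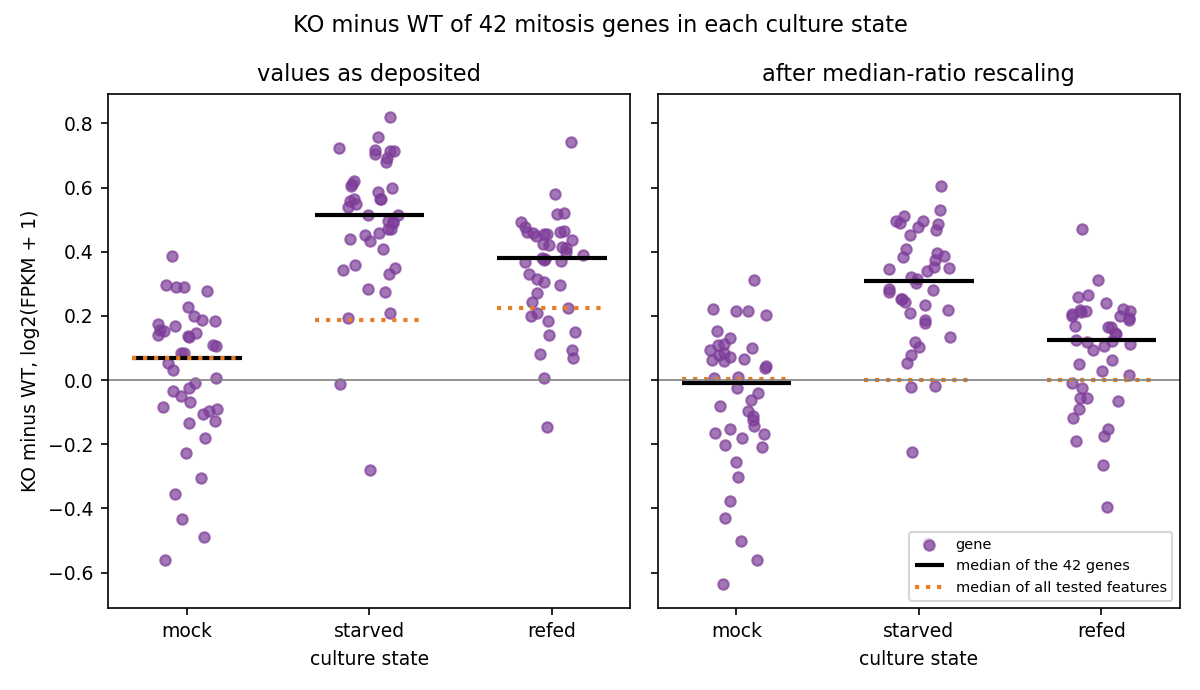
KO minus WT difference in log2(FPKM + 1) of each of the 42 genes in mock, starved and refed cells, with values as deposited (left panel) and after median-ratio rescaling (right panel); black bars are medians of the 42 genes and dotted bars medians of all tested features. The bars coincide or nearly so in mock cells and part in starved cells, 0.51 against 0.19 as deposited and 0.31 against 0 after rescaling.

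Averaged over the 3 states, 13 of 42 genes rose in KO and none fell, against 28.7% of all features that rose and 4.58% that fell. The share that rose was near that of all features. At an unadjusted limma p under 0.05, 21 of 42 were higher and 0 lower, against 5524 and 948 of all 13456 features. The median difference was log2 0.32 against 0.16 for all features and 0.87 for the 9 colon epithelial markers, whose part in the genotype difference was not tested. The 13 were CCNA2, FOXM1, NEK2, INCENP, CDCA8, BUB1, BUB1B, TTK, CDC20, SPC25, KIF2C, ASPM and ECT2. The count is unstable. After median-ratio rescaling 3 rose, FOXM1, INCENP and TTK, and 2 fell, CDC25B and DLGAP5, where 1651 of all 13456 features rose and 1454 fell. With 1 group left out the count that rose was 30 without KO mock or without WT mock and 0 without any other. Of all 13456 features, 5048 rose without KO mock and 5039 without WT mock, and at most 16 without any other.

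The largest averaged differences were those of CDC20 (log2 0.56, SE 0.14, adjusted p = 0.0412), TTK (log2 0.52, SE 0.09, adjusted p = 0.0173) and KIF20A, which did not pass (log2 0.49, SE 0.14, adjusted p = 0.0556). For CDC20, KO minus WT was log2 0.19 in mock, 0.76 in starved and 0.74 in refed cells, so most of the difference lay outside mock culture. The lowest were DLGAP5 (log2 -0.22, SE 0.11, adjusted p = 0.175), CDC25B (log2 -0.21, SE 0.10, adjusted p = 0.151) and CCNB1 (log2 -0.09, SE 0.17, adjusted p = 0.707), none of which passed with values as deposited.

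By pattern, 24 genes were above WT in KO in all 3 states, which held for 54.3% of all features, and 16 were below WT in mock and above it in starved and refed cells, which held for 17.7%. The 16, as deposited, were CCNB1, CCNB2, CDC25C, PLK1, AURKA, TPX2, AURKB, BIRC5, UBE2C, PTTG1, CENPA, CENPF, KIF4A, HMMR, KIF23 and TOP2A. CDC25B and DLGAP5 made up the rest. After median-ratio rescaling 18 of the 24 kept their pattern, where 32% of all features had it. Of the 16, 10 kept theirs and NUF2 joined them, where 7.19% of all features had it; CCNB1, CCNB2, CDC25C, PLK1, TPX2 and KIF23 left it. With upper-quartile rescaling 17 of the 24 and 9 of the 16 kept their pattern. The pattern of the 16 also turns on the WT mock value, the one that also held the endothelial transcripts, and that part was not tested.

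Other genes of the same machinery, not in the set, moved with it to differing degrees in starved cells, where 19.4% of all features fell and 5.83% rose. Of 25 further spindle and cytokinesis genes 22 fell (88%) and none rose, with a median of log2 -0.72; among them SPAG5, the gene of the spindle protein astrin (log2 -1.02, SE 0.08, adjusted p = 0.017), and CEP55, which organises abscission (log2 -1.004, SE 0.16, adjusted p = 0.0218), fell. Of 35 further kinetochore and checkpoint genes tested 16 fell (45.7%) and 1, CENPM, rose, with a median of -0.29; SGOL2, a shugoshin that protects centromeric cohesion, fell most (log2 -1.34, SE 0.13, adjusted p = 0.017). Of 19 condensin and cohesion genes 12 fell (63.2%) and none rose, with a median of -0.36, including the condensin subunit NCAPG (log2 -0.82, SE 0.08, adjusted p = 0.0173). MKI67, which coats mitotic chromosomes and marks proliferating cells, fell too (log2 -0.81, SE 0.19, adjusted p = 0.0412).

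Of 17 APC/C subunits and regulators 4 fell (23.5%, near the 19.4% of all features), ANAPC10, CDC27, FZR1 and UBE2S, and none rose, with a median of log2 -0.09 where all features had -0.13. UBE2S, the second ubiquitin-conjugating enzyme of the APC/C, had 387, 206 and 248 FPKM in mock, starved and refed KO cells and 407, 173 and 194 FPKM in mock, starved and refed WT cells. Both mock values exceeded the other 4 (log2 -1.07, SE 0.13, adjusted p = 0.018). Of 14 further regulators of mitotic entry 5 fell (35.7%), CCNF, BORA, PBK, MELK and CKS2, and 1, CDC25A, rose. CKS2, a small CDK1-binding protein, had 382, 237 and 242 FPKM in mock, starved and refed KO cells and 397, 163 and 211 FPKM in mock, starved and refed WT cells.

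Of 17 subunits of DREAM, MuvB, NF-Y and their regulators, 1, NFYA, fell (5.88%, under the 19.4% of all features), with a median of log2 -0.12. NFYA, the DNA-contacting subunit of NF-Y, had 9.71, 7.89 and 8.59 FPKM in mock, starved and refed KO cells and 7.91, 6.09 and 6.06 FPKM in mock, starved and refed WT cells. Its mock value was the highest in each genotype (log2 -0.30, SE 0.07, adjusted p = 0.0474). B-MYB, encoded by MYBL2 and named here after its values were seen, had 20.4, 18.9 and 18.9 FPKM in mock, starved and refed KO cells and 16.5, 15.2 and 16.04 FPKM in mock, starved and refed WT cells. Its starved minus mock difference did not pass (log2 -0.11, SE 0.07, adjusted p = 0.274).

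Genes of an earlier part of the cell cycle mostly went the other way. Of 26 G1/S and replication genes 13 rose in starved cells (50%, where 5.83% of all features rose) and 1, RRM2, fell, with a median of log2 0.42. MCM5, a helicase subunit that licenses origins, had 24.0, 50.7 and 49.8 FPKM in mock, starved and refed KO cells and 19.3, 45.8 and 46.4 FPKM in mock, starved and refed WT cells. It rose in starved cells (log2 1.13, SE 0.09, adjusted p = 0.017). E2F1, the transcription factor of S phase entry, had 7.72, 15.97 and 18.4 FPKM in mock, starved and refed KO cells and 5.86, 13.3 and 14.3 FPKM in mock, starved and refed WT cells. It rose as well (log2 1.01, SE 0.07, adjusted p = 0.017). Their starved and refed values exceeded the mock values in both genotypes, unlike any of the 42 mitosis genes.

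In refed against starved cells, 2 of the 154 genes of these further lists rose (1.3%, where 0.773% of all features did), both named after their values were seen. WEE1, the kinase that holds CDK1 inactive, had 9.60, 10.6 and 30.5 FPKM in mock, starved and refed KO cells and 9.58, 8.99 and 43.9 FPKM in mock, starved and refed WT cells. It rose in refed cells (log2 1.81, SE 0.19, adjusted p = 0.0455). TRIP13, an ATPase that dismantles checkpoint complexes, had 14.5, 15.7 and 29.0 FPKM in mock, starved and refed KO cells and 10.6, 10.9 and 21.1 FPKM in mock, starved and refed WT cells. It rose too (log2 0.87, SE 0.07, adjusted p = 0.0228). In both, the refed value of each genotype stood well above its mock and starved values.

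Levels per length differed widely among the 42 genes. In mock cells they ran from 5.65 to 200.0 FPKM in KO, with a median of 31.1, and from 5.17 to 184.5 FPKM in WT, with a median of 29.3; in both, KIF14 was the lowest, followed by CENPE and ASPM. In starved cells the medians were 18.0 FPKM in KO and 11.9 FPKM in WT, and in refed cells 16.0 FPKM in KO and 12.5 FPKM in WT. Besides FOXM1 and SPC25, CCNA2, CDC25C, PLK1, KIF20A, BUB1B and ANLN are each overlapped by another protein-coding gene in the RefSeq annotation, 8 genes in all, and KIF4A has the near-identical copy KIF4B, which was at 0.0263 FPKM or less, so the values of these genes are uncertain to the extent that reads were shared.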

How the data were processed

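Poly(A)-selected RNA of HCT116 cells was sequenced, per the labels' protocols. The submitters' processing notes name FastQC, cutadapt, TopHat2 and the genome build hg19; the program and annotation that gave the FPKM values, and how the 2 labelled replicates of a group were combined, are not given in the sources used here. The authors deposited 6 tables with 1 FPKM column each, named for a group, so a group is 1 value; the depth is unknown, and intervals that need it are left out.

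The deposited values were taken to log2(FPKM + 1), and a feature was kept if any group reached 1 FPKM, which left 13456. limma 3.58.1 (R 4.3.3) fitted state and genotype additively with a variance trend and 2 residual degrees of freedom, with Benjamini-Hochberg adjustment over all features; p-values measure the spread between these 6 values only. The step was run on simulated data with equal noise for every feature and the same response to state in both genotypes. That check cannot speak for genes whose response differs between the genotypes. Single comparisons were counted at 2-fold.

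Values in all groups are given for CCNB1, CDK1, PLK1, AURKA, AURKB, BUB1, CDC20, TOP2A, FOXM1, the 6 lowest and 3 highest starved minus mock and the 3 lowest and 3 highest KO minus WT differences; further lists name the called genes with the largest starved minus mock difference, up to 4 a list; 1 such gene is not reported here. The genes, lists and rules were chosen with earlier results of these data known. Alternatives were a pseudocount of 0.1, no filter, a filter at 5 FPKM, median-ratio and upper-quartile rescaling, no short RNA features, no variance trend, and leaving out each group value. Fibroblast and leukocyte markers were also read: of 8 and 6 genes, 1 and 0 reached 1 FPKM. Promoter sequences are RefSeq's on GRCh38.p14; the deposited values were not lifted between builds.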

Additional observations from a re-analysis of the deposited data

Results flagged for a closer look

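The median refed minus starved difference of the 42 mitosis genes had opposite signs in the genotypes, log2 -0.13 in KO cells and 0.0131 in WT cells. The difference between the genotypes was not tested.

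For 4 genes, KO minus WT had opposite signs in different culture states, by at least 0.2 on the log2 scale on each side. CCNB1 was at log2 -0.56 in mock and 0.21 in starved cells. CDC25C was at log2 -0.43 in mock and 0.28 in starved cells. PTTG1 was at log2 -0.23 in mock, 0.71 in starved and 0.58 in refed cells. CENPF was at log2 -0.30 in mock, 0.59 in starved and 0.45 in refed cells. After median-ratio rescaling PTTG1 (-0.30, 0.49 and 0.31 in mock, starved and refed cells) kept differences of that size on both sides, and so did CENPF between mock and starved cells (-0.38 and 0.38). CCNB1 and CDC25C did not, at -0.02 and 0.08 in starved cells. Each value is 1 group minus 1 group and the difference between states was not tested.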

How the results depend on the processing

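No paired analysis was possible because each group has 1 deposited column, which carries no replicate number. For the starved minus mock and refed minus mock comparisons, the 34 of 42 genes that fell in each became 0 without a filter on low values, and 0 to 37 and 0 to 38 with 1 group value left out; the other alternatives gave 32 to 36 and 32 to 37. The 13 that rose in KO became 0 without a filter, 3 with median-ratio and 3 with upper-quartile rescaling. They became 0 to 30 with 1 value left out, and the 0 that fell became 2 with either rescaling. Of all 13456 features, 1651 rose and 1454 fell with median-ratio rescaling, and 1473 rose and 1697 fell with upper-quartile rescaling. With a pseudocount of 0.1, the genes at least 2-fold lower in KO cells went to 7 for starved minus mock, where 3 were reported, and to 12 for refed minus mock, where 7 were; on FPKM itself, added after seeing the data, they were 8 and 12. The median of the 42 genes changed sign for KO minus WT in mock (-0.00780 with median-ratio and -0.0376 with upper-quartile rescaling) and for refed minus starved without KO starved (0.0735, in a range of -0.229 to 0.0735 with 1 value left out). The cause was not tested, except that a fit to 5 values has 1 residual degree of freedom and the absence of a filter raises the features tested to 26372. Without counts or replicate values, neither depth nor replicate error can be set beside any difference.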
